A study of Homo sapiens with 28 samples.

Results

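Loucy is an established human T-cell leukaemia line that the field uses to study leukaemia of early T-cell progenitors. The 4 Loucy libraries described here are 2 for acetylation of lysine 27 of histone H3 (H3K27ac) and 2 for its trimethylation (H3K27me3), out of 28 libraries in the series, and they were chosen by cell line and antibody as the labels name them. The cells were untreated and grown in RPMI-1640 with serum, and the labels name no genotype. Jurkat, an established line from a T-cell acute lymphoblastic leukaemia and the other human line of the series, was grown and processed in the same way and serves as the comparison, also with 2 libraries for each mark. The remaining samples came from mouse bone marrow and were not used here. Each line is a single line, and the labels do not say whether replicates 1 and 2 were separate cultures, so the p-values below measure only the spread between these libraries.

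H3K27ac is laid down by the acetyltransferases CBP and its paralogue at active promoters and enhancers, and unusually long stretches of it tend to lie over genes that a cell type uses heavily. H3K27me3 is written by EZH2, the catalytic subunit of Polycomb repressive complex PRC2, and usually forms domains over silent developmental genes. A given lysine can carry acetyl or methyl groups but not both, so the marks exclude each other on a histone tail, while the 2 copies of H3 in a nucleosome, or different cells, may differ. The question put to the Loucy peak lists was where the long acetylated domains lie, what the few H3K27me3 peaks are, and whether the latter lie under acetylation. No human gene annotation or genome sequence was used here, so regions are given by hg38 position alone, without gene names or sequences, and the line was not checked against marker genes.

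The H3K27ac libraries of Loucy held 12521211 and 11773660 fragments in replicates 1 and 2 after duplicates were removed, and the H3K27me3 libraries held 5974153 and 3900279. Jurkat had 11329731 and 11828122 fragments for H3K27ac and 9209392 and 12261421 for H3K27me3, so H3K27me3 was sequenced less deeply in Loucy than in Jurkat. All 4 Loucy lists were called against 1 Loucy input library of 24429049 fragments, and they therefore share the background against which a peak was judged. Fold enrichment, pileup (the mean number of fragments over a peak) and q are the authors' values for each peak. Counts below cover chromosomes 1 to 22, X and Y.

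Called H3K27ac peaks covered 283 times as much of the Loucy genome as called H3K27me3 peaks did, by the mean of the replicates. This ratio concerns called peaks only. In replicates 1 and 2, H3K27ac peaks held 21.42% and 35.02% of the fragments of their library, and H3K27me3 peaks 1.386% and 1.508%. The H3K27me3 libraries also had fewer fragments, as given above, and the part of depth or enrichment in this ratio was not tested. H3K27ac peaks numbered 30246 in replicate 1 and 40250 in replicate 2, and H3K27me3 peaks numbered 136 and 144. Merged H3K27ac peaks covered 43.9 Mb and 64.1 Mb, which was 1.63% and 2.38% of the genome size that the peak caller was given, and merged H3K27me3 peaks covered 0.203 Mb and 0.179 Mb. The mean territories were 54.0 ± 14.3 Mb and 0.191 ± 0.0170 Mb (SD, n = 2 each), a difference of 53.9 Mb that far exceeded the spread between replicates. The two-sided exact permutation p was 0.333, the smallest that 2 libraries against 2 can give, and the Benjamini-Hochberg adjusted p over 7 such comparisons was 0.467. Typical peaks of both marks were short, with median lengths of 997 bp and 1021 bp for H3K27ac and 985 bp and 822 bp for H3K27me3. The longest merged H3K27ac peaks measured 68.7 kb and 88.1 kb, and the longest H3K27me3 peaks 11.6 kb and 8.44 kb. A longest peak depends on the number of peaks, which differed widely between the marks. A length of at least 5 kb was reached by 1047 of 30246 and 1947 of 40250 H3K27ac peaks. Among H3K27me3 peaks it was reached by 7 of 136 and 5 of 144, so long peaks were not rarer for their number.

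**Figure D1:**
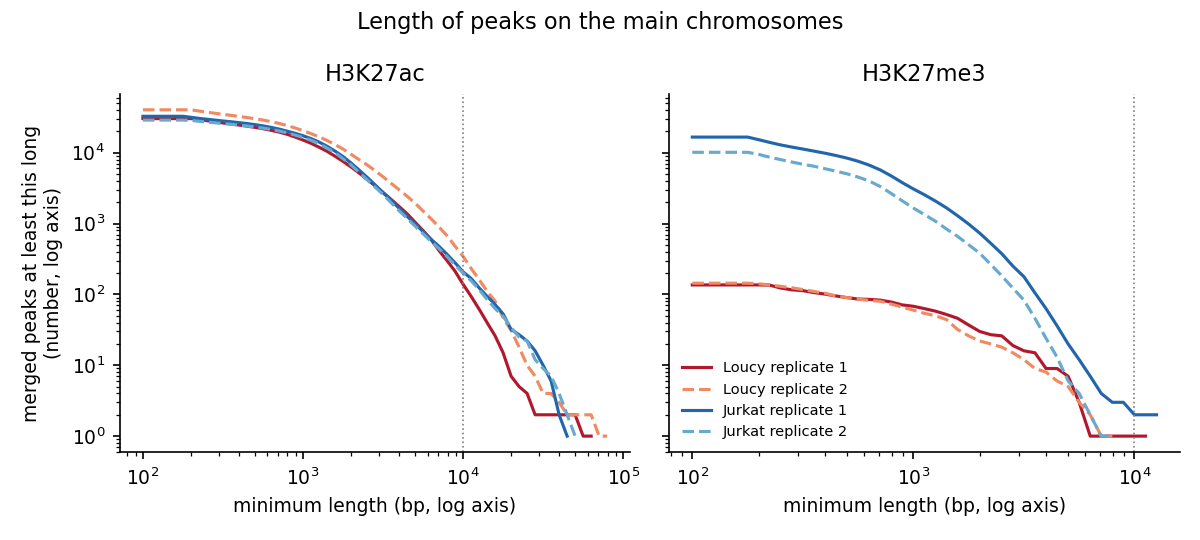
Number of merged peaks (log axis) that are at least as long as the length on the x axis (bp, log axis), for H3K27ac and H3K27me3, with 1 line per library and the dotted line at 10 kb. The Loucy H3K27me3 lines start at 136 and 144 peaks, below the Jurkat lines, which start above 10000, while for H3K27ac all 4 libraries start between 28826 and 40250 peaks.

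Broad acetylated domains were taken as H3K27ac regions of at least 10 kb, after peaks of both replicates had been merged where they overlapped. A library was said to hold a region when its peaks covered at least 10% of it. Of 44851 merged H3K27ac regions, 23322 were held in both replicates, and these included 398 of at least 10 kb, with a median length of 12.2 kb and a sum of 5.63 Mb. The shortest domain inside the threshold measured 10002 bp and the longest region outside it 9981 bp. Domains of at least 20 kb numbered 35, and 3 exceeded 40 kb. The 398 lay on 23 chromosomes, with the highest counts on chromosome 1 (43 domains), chromosome 17 (37) and chromosome 2 (31). These counts were not set against chromosome size or against all held regions.

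All merged regions of this length were held in both replicates, which differed in how continuous they were. Replicate 2 covered a median of 99.6% of a domain (lowest 80.6%) and replicate 1 a median of 81.5% (lowest 20.4%), and replicate 2 covered more in 367 of the 398. In 347 domains the replicate 2 list had a single peak, against 135 domains in replicate 1. An unbroken peak of 10 kb or more was present in both replicates in 125 domains, in replicate 2 alone in 218, in replicate 1 alone in 11 and in neither in 44, where the union reached the threshold. Counted in each library on its own, merged peaks of at least 10 kb numbered 139 in replicate 1 and 344 in replicate 2, so the count of domains depends on replicate 2. The mean fold enrichment of a domain was also higher in replicate 2 in 391 of 398, with medians of 5.31 and 6.21.

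Peaks of at least 10 kb were stronger than the rest as well as longer. Their median fold enrichment was 6.15 in replicate 1 and 6.37 in replicate 2, against 3.73 and 3.71 for shorter peaks, and their median pileup was 16.5 and 16.4 fragments against 8.55 and 7.76. A −log10 q of at least 5 was reached by 127 of the 139 and by 318 of the 344, against 28.0% and 28.4% of the shorter peaks.

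The longest domain lay at chr17:48560480-48648572 and measured 88.1 kb. In replicate 1 it was covered over 86.7 kb by 2 peaks with a mean fold enrichment of 7.62, and in replicate 2 over its whole length by 1 peak with 9.57. H3K27ac peaks of Jurkat covered 7.50 kb and 7.53 kb of it, under 10% in both libraries, while H3K27me3 peaks of Jurkat covered 5.26 kb and 5.01 kb. By mean fold enrichment it ranked 37 and 33 among the 398, above the medians of 5.31 and 6.21.

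The second longest domain, at chr7:27138622-27202493, measured 63.9 kb and was among the strongest, ranking 5 of 398 by mean fold enrichment in each replicate, with 11.1 and 13.8. Peaks covered 60.3 kb of it in replicate 1 and 63.7 kb in replicate 2. In Jurkat, H3K27ac covered 6.80 kb and 6.45 kb, and no H3K27me3 peak touched it. The next domain in length was 21.9 kb shorter, so these 2 stood apart from the rest.

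The third longest domain, at chr17:57428259-57470264, measured 42.0 kb and was covered over 35.1 kb in replicate 1 and 42.0 kb in replicate 2. The fourth, at chr16:85440548-85476213 (35.7 kb), showed the widest gap between replicates among the 10 longest, with 21.4 kb in 5 peaks against 35.7 kb in 1. The fifth, at chr22:46049723-46082230 (32.5 kb), was covered nearly to the same extent, over 31.2 kb and 31.7 kb, with a mean fold enrichment of 8.77 and 11.1. Jurkat had H3K27ac over 5.39 kb to 9.19 kb of each of these 3.

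The sixth longest, at chr9:132977070-133008774 (31.7 kb), had the least acetylation in Jurkat of the 10, with none in replicate 1 and 0.269 kb in replicate 2, against 26.7 kb and 31.1 kb in Loucy. Those at chr1:203299232-203330033 (30.8 kb) and chr18:77110605-77138525 (27.9 kb) were covered over 22.4 kb and 30.4 kb, and over 25.4 kb and 26.7 kb. Of the 10 longest, the domain on chromosome 18 held the most acetylation in Jurkat, with 10.9 kb and 12.9 kb. The last 2 lay at chr15:28932208-28958686 (26.5 kb), where Jurkat had 1.43 kb and 0.675 kb, and at chr9:89518366-89544561 (26.2 kb), which had the lowest mean fold enrichment of the 10, 4.21 and 4.87. In all 10, both Loucy libraries covered more of the domain than either Jurkat library, as they did in 333 of the 398 broad domains (83.7%) and in 13361 of all 23322 held regions (57.3%). Regions drawn from Loucy peaks favour this order, so it is given as a description.

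**Figure D2:**
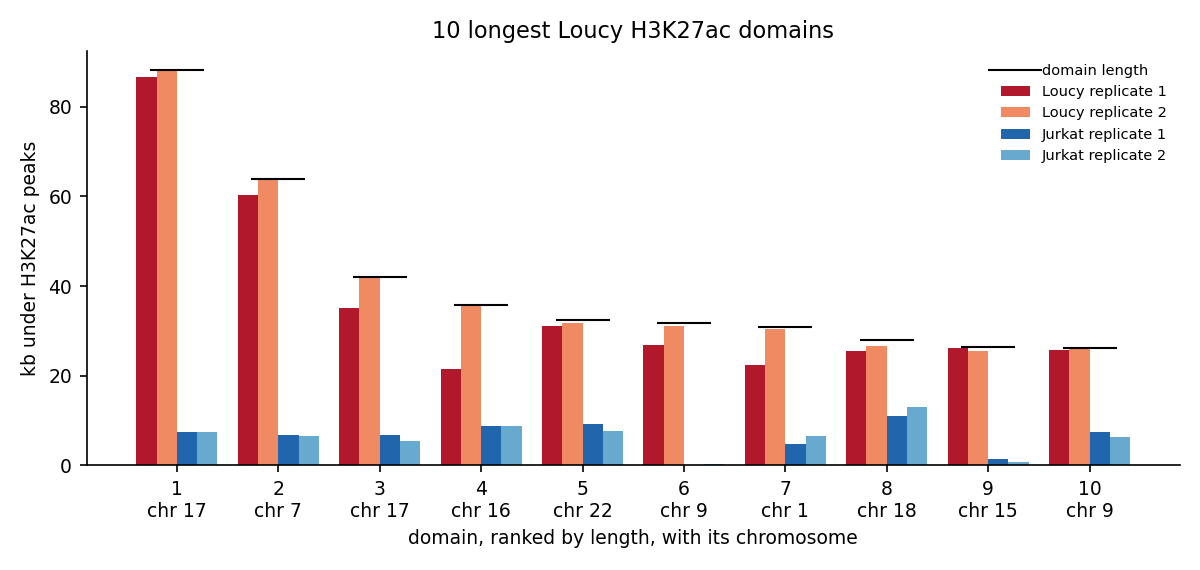
Length covered by H3K27ac peaks (kb) in each of the 10 longest Loucy domains, ranked by length, with 1 bar per library and a black dash at the length of the domain. Loucy bars range from 21.4 kb to 88.1 kb and Jurkat bars from 0 to 12.9 kb. The domains were ranked by their length in Loucy, so the lower Jurkat bars are a description.

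Most broad Loucy domains carried some acetylation in Jurkat too. Both Jurkat libraries held 271 of the 398, 1 library held 17, and neither held 110 (27.6%). Among all 23322 Loucy regions held in both replicates, neither Jurkat library held 8302 (35.6%), so the share among broad domains was not above the background. No Jurkat H3K27ac peak at all touched 61 domains (15.3%), against 7937 of all held regions (34.0%), and at least 50% was covered in both Jurkat libraries in 121 (30.4%), against 10770 (46.2%). Most held regions are far shorter than the broad domains, and the part of length in these shares was not tested. The 110 had a median length of 11.9 kb, and a median of the mean fold enrichment of 4.98 and 5.91, against 12.6 kb, 5.48 and 6.51 for the 271. The 5 longest of the 110 were the domains ranked first, sixth and ninth above, followed by chr2:20560377-20586319 (25.9 kb), where Jurkat had no H3K27ac peak in either replicate, and chr2:231381539-231407213 (25.7 kb), where it had 0.601 kb and 0.444 kb.

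The share of acetylation that lay in broad domains did not differ between the lines beyond the spread of replicates. The share of H3K27ac territory in merged peaks of at least 10 kb was 4.38% and 7.60% in Loucy and 6.82% and 7.00% in Jurkat. The Loucy values lay on either side of the Jurkat values, and the means of 5.99% ± 2.27 and 6.91% ± 0.127 (SD, n = 2 each) differed by less than the spread of the Loucy libraries (exact permutation p = 1, two-sided). The direction of this difference turned with the setting: it was 1.69 percentage points in favour of Loucy with peaks of −log10 q of at least 5 and 3.58 with domains of at least 5 kb. By the same rule, 265 regions of at least 10 kb were held in both Jurkat libraries, and the longest measured 51340 bp.

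No called H3K27me3 peak of Loucy lay over a broad domain. In each replicate, 0 of the 398 domains were touched, a count that concerns called peaks only. The nearest H3K27me3 peak lay 14.7 kb from the domain at chr1:109810776-109822140. A peak lay within 100 kb of 5 domains, and for the 338 domains on a chromosome with any H3K27me3 peak the median distance was 19959 kb. Over all H3K27ac peaks, 41 of 30246 in replicate 1 (0.136%) and 15 of 40250 in replicate 2 (0.0373%) were touched by an H3K27me3 peak, so contact was rare at any length, and with lists this short a count of 0 among 398 does not set the broad domains apart.

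In Jurkat, H3K27me3 peaks of either library touched 33 of the 398 domains (8.29%), against 537 of the 23322 held regions of any length (2.30%). They covered at least 10% of the length in both libraries in 6 domains (1.51%), against 192 of the held regions (0.823%). None of the 6 had an H3K27ac peak in Jurkat. Of the 192 held regions, 143 were likewise covered under 10% by H3K27ac in both Jurkat libraries, so a count of 6 does not set the broad domains apart. Over their whole lists, Jurkat H3K27me3 peaks had a median −log10 q of only 1.38 and 1.42. The 6 domains were chr11:2770436-2782273, chr14:100671665-100682665, chr5:139641570-139651597, chr1:1204812-1216079, chr20:9502420-9519892 and chr6:33849816-33865173. At the first of these, 11.8 kb long, Loucy H3K27ac covered 11.4 kb and 11.8 kb, and Jurkat H3K27me3 covered 5.11 kb and 1.89 kb. At the domain on chromosome 20, 17.5 kb long, Jurkat H3K27me3 covered 3.21 kb and 3.22 kb. By sequence covered, Jurkat H3K27me3 took 0.788% and 0.467% of the broad domains, close to the 0.744% and 0.497% of all held Loucy regions.

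The H3K27me3 lists of Loucy were short, and nearly all of their peaks lay where the background itself was very deep. The fold enrichment and pileup of a peak give the local background it was compared with, which is expressed here as a multiple of the genome average of that library. The median local background was 41.1 and 42.8 times the average for the Loucy H3K27me3 peaks, 1.25 and 1.22 times for Jurkat H3K27me3 peaks, and 1.56 times in both Loucy H3K27ac libraries. At least 10 times the average was reached by 121 of 136 Loucy peaks (89.0%) and 124 of 144 (86.1%), against 88 of 16590 (0.530%) and 92 of 10120 (0.909%) in Jurkat. The libraries of the lines did not overlap, with means of 87.5% ± 2.02 and 0.720% ± 0.268 (SD, n = 2 each, exact permutation p = 0.333, adjusted p = 0.467). Over all Loucy H3K27me3 peaks, those at lower background included, the median fold enrichment was 2.47 and 2.93 and the median pileup 52.8 and 39.2 fragments. What part the local background plays in these peaks was not tested.

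The order of the lines in called H3K27me3 peaks depended on the q threshold and on local background. Over all peaks, Loucy had 140 ± 5.66 and Jurkat 13355 ± 4575 (SD, n = 2 each), and the territories were 0.203 Mb and 0.179 Mb in Loucy against 11.5 Mb and 6.68 Mb in Jurkat (exact permutation p = 0.333, adjusted p = 0.467). With peaks of −log10 q of at least 5, Loucy had more: 52 and 61 peaks over 108 kb and 103 kb, against 19 and 18 peaks over 37.2 kb and 36.5 kb in Jurkat. These were 38.2% and 42.4% of the Loucy peaks and 0.115% and 0.178% of the Jurkat peaks. Of the Loucy ones, 52 of 52 and 59 of 61 lay at high local background, and of the Jurkat ones 14 of 19 and 14 of 18. Away from high background, each Jurkat list thus held more peaks at this q than either Loucy list. Depth differed as given above, and its part was not tested.

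**Figure D3:**
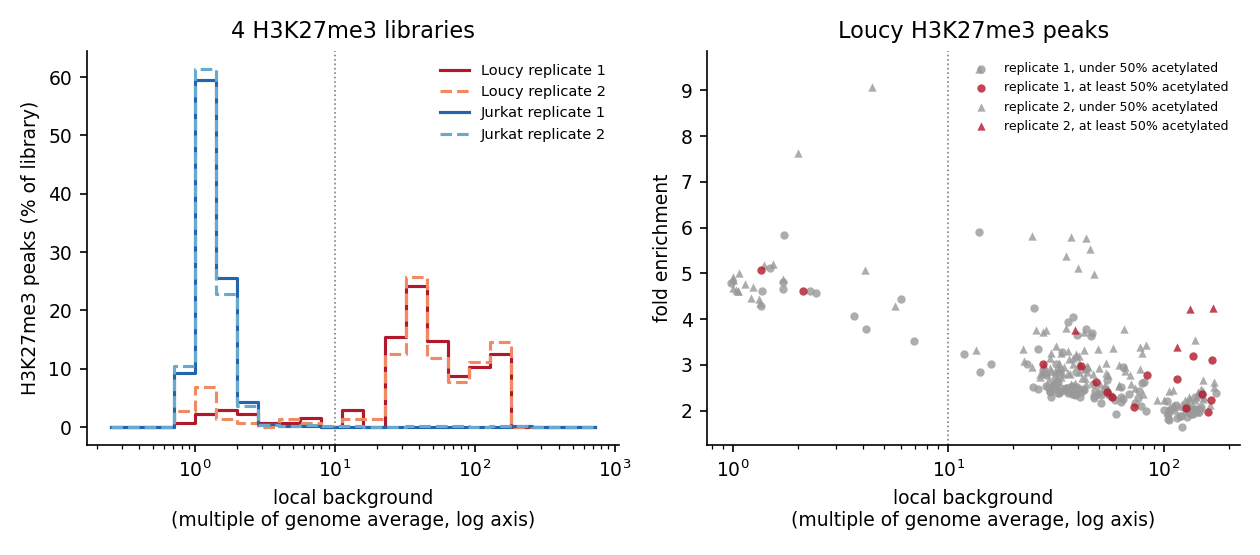
Left, share of H3K27me3 peaks (% of each library) by local background as a multiple of the genome average (log axis), with 1 line per library. Right, fold enrichment against local background (log axis) for each Loucy H3K27me3 peak, in red where at least 50% of its length lay under H3K27ac of the same replicate. The Loucy libraries gather to the right of the dotted line at 10 times the average and the Jurkat libraries close to 1, and the red points lie mostly among peaks of high background.

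Of the few H3K27me3 peaks, a minority lay under acetylation, and the replicates differed in how many. At least 50% of the length was covered by H3K27ac peaks of the same replicate in 16 of 136 peaks in replicate 1 (11.8%, exact 95% binomial interval 6.88% to 18.4%) and in 4 of 144 in replicate 2 (2.78%, 0.762% to 6.96%), with intervals that cover the counting of peaks only. In Jurkat the counts were 67 of 16590 (0.404%) and 48 of 10120 (0.474%). The means were 7.27% ± 6.35 and 0.439% ± 0.0498 (SD, n = 2 each), and the difference of 6.83 percentage points was about as large as the SD of the Loucy libraries (exact permutation p = 0.333, adjusted p = 0.467). It fell to 2.30 points without replicate 1 and rose to 11.4 without replicate 2, and with peaks of −log10 q of at least 5 it turned to −13.4, on 4 of 52 and 2 of 61 Loucy peaks and 4 of 19 and 3 of 18 Jurkat peaks. Among H3K27me3 peaks at high local background alone, a choice made after seeing the data, the counts were 14 of 121 (11.6%) and 4 of 124 (3.23%) in Loucy and 8 of 88 (9.09%) and 8 of 92 (8.70%) in Jurkat. The Loucy libraries then lay on either side of the Jurkat libraries, and the difference of means was −1.50 points (exact permutation p = 1). Beside the shares over all peaks, 1.63% and 2.38% of the genome lay under H3K27ac in Loucy, and 1.81% and 1.68% in Jurkat.

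Contact of any length was more common. An H3K27ac peak of the same replicate touched 35 of 136 H3K27me3 peaks in replicate 1 (25.7%) and 14 of 144 in replicate 2 (9.72%), while at least 90% was covered in only 4 and 0. Of the touched peaks, 33 of 35 and 13 of 14 lay at high local background. The peaks at lower background numbered 15 and 20, of which 2 and 1 were touched. When the acetylation of the other replicate was used, 15 peaks of replicate 1 and 37 of replicate 2 were touched, so the difference followed the H3K27ac library rather than the H3K27me3 library.

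**Figure D4:**
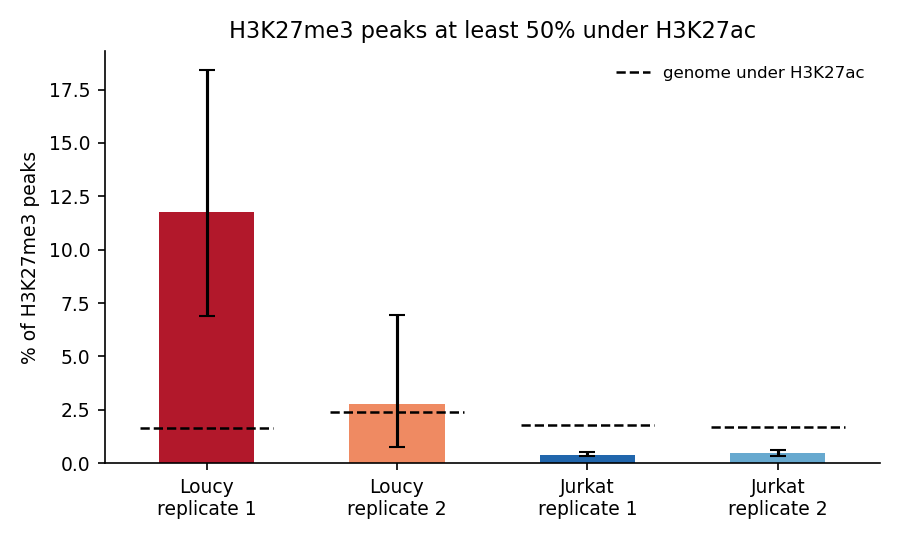
Share of H3K27me3 peaks (%) with at least 50% of their length under H3K27ac peaks of the same replicate, with exact 95% binomial intervals as error bars, and the share of the genome under H3K27ac as a dashed line, per library. Replicate 1 of Loucy stands at 11.8%, above its dashed line, replicate 2 at 2.78%, close to its own, and both Jurkat libraries under 0.5%.

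The H3K27ac peaks that met H3K27me3 were unlike the rest of the acetylation. Their median fold enrichment was 1.48 in replicate 1 and 1.56 in replicate 2, against 3.74 and 3.72 for all other H3K27ac peaks. Their median pileup was 150 and 127 fragments against 8.57 and 7.80, over a local background of 109 and 91.1 times the average against 1.56 times. High local background was found in 39 of the 41 and 14 of the 15, and only 40 and 16 H3K27ac peaks of the 2 libraries had it at all. The longest measured 5192 bp and 2571 bp. The 158 and 99 Jurkat H3K27ac peaks that touched H3K27me3 had a median fold enrichment of 3.71 and 3.58, and 17 of them in each library lay at high local background.

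Of 44 merged H3K27ac regions touched by H3K27me3 in either replicate, the longest lay at chr17:81510295-81520169 and measured 9875 bp, just under the length of a broad domain. It was a strong H3K27ac region, with a mean fold enrichment of 8.33 and 11.1 at 3.05 and 2.54 times the average background, and H3K27me3 covered only 2.45% of it, in replicate 1. The fourth longest, at chr1:169602967-169606250 (3284 bp), had ordinary background as well, with H3K27me3 over 9.41% of it in replicate 2 alone. The other 3 of the 5 longest, at chr5:49657378-49661794, chr16:46387817-46391225 and chr16:46398428-46401350, lay wholly under H3K27me3 in both replicates. There the H3K27ac fold enrichment, where a peak was called, was between 1.31 and 1.53 and the background over 100 times the average.

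The H3K27me3 regions recurred between replicates. Merging both lists gave 162 regions, of which 104 (64.2%) were held in both, 30 came from replicate 1 alone and 28 from replicate 2 alone. High local background was seen in both replicates in 101 of the 104, and in 18 of the 30 and 11 of the 28. The 104 covered 205 kb on 15 chromosomes. Their highest fold enrichment ranged from 1.80 to 5.91 in replicate 1 and from 1.98 to 9.48 in replicate 2, and it was higher in replicate 2, the shallower library, in 101.

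These regions were gathered in few places. Joined over gaps of up to 100 kb they formed 25 groups, and 13 groups with at least 3 regions held 91 of the 104. The fullest was chr1:143184685-143267578, where 14 regions covered 45.4 kb at 101 to 148 times the average background in replicate 1, with a fold enrichment of 1.82 to 2.12. Groups of 12 regions lay at chr4:49091414-49154925 and at chr10:41859269-41912107, over 30.1 kb and 27.5 kb. Groups of 8 lay at chr4:49632713-49711869 and chr20:31053908-31187375. The longest single region, chr1:143211822-143223400 (11579 bp), was touched by H3K27ac over 29.4% in replicate 1 and not in replicate 2, and the next, chr4:49102437-49110902 (8466 bp), by none. H3K27me3 peaks of both Jurkat libraries touched all 10 of the longest regions, and 51 of the 104 (49.0%).

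H3K27ac of either Loucy replicate touched 34 of the 104 regions, 33 in replicate 1 and 13 in replicate 2, with 12 in both. The acetylated regions had a median local background of 94.9 and 95.3 times the average, against 39.6 and 43.1 times for the 70 others, while the median fold enrichment was close, 2.41 and 2.79 against 2.43 and 2.87. Jurkat H3K27me3 touched 61 of the 104, and 30 of the 34 that Loucy acetylation touched. Jurkat H3K27ac touched 18, all of them among the 34. In 11 regions peaks were present in every one of the 8 human lists, both marks and both lines, and 39 regions were in no list but the Loucy H3K27me3 lists.

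Only 3 of the 104 regions were at least 50% under H3K27ac in both replicates, and all 3 were among those 11. Since those 11 were 11 of the 12 regions that acetylation touched in both replicates, this overlap was nearly fixed in advance. At chr3:93470373-93470777 (405 bp) acetylation covered 89.9% and 70.9%, and this region had the highest −log10 q of any Loucy H3K27me3 peak on the main chromosomes, 48.6 and 62.3, at 168 and 170 times the average background. In Jurkat it was covered by H3K27me3 over 93.6% and 90.4% and by H3K27ac over 75.6% and 71.4%. At chr5:49656517-49661826 (5310 bp) acetylation covered 83.2% and 55.6%, and at chr5:49600519-49603035 (2517 bp) 65.4% and 53.8%, with Jurkat peaks of both marks over each.

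At ordinary background only 3 regions were held in both replicates. At chr20:30486594-30487466 (873 bp) the fold enrichment was 5.85 and 7.63 with a −log10 q of 4.02 and 7.66, and no other human list had a peak there. At chr1:229432295-229432794 (500 bp) the fold enrichment was 5.12 and 4.89, again in no other list. The region at chr12:12266858-12267415 (558 bp), with 5.07 and 5.22, was the only 1 of the 3 under acetylation, over 52.7% in replicate 1 and not at all in replicate 2, and Jurkat H3K27ac covered it fully in both libraries. Its −log10 q was 2.35 and 2.59.

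The 20 regions with the highest mean fold enrichment held these 3, and 10 more from a repeated pattern on chromosome 21. The highest was a 261 bp region on chromosome 8, at chr8:69690109-69690369, with 5.91 and 9.48 at 13.9 times the average background and no other human list over it. The other 6 lay at chr5:49600519-49603035 and chr3:93470373-93470777, given above, and at chr17:21988423-21990995, chr2:89835881-89837201, chr4:49123611-49123965 and chr4:49129740-49130940. Acetylation touched each of the first 5 of those 6 in replicate 1, over 18.0% to 89.9%, and the last in neither replicate.

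On chromosome 21, 11 regions between 8210018 and 8445705 repeated 1 layout in 4 copies, a pattern noticed after the values had been seen. Each copy began with a region of 1445 bp to 1471 bp, followed by one of 364 bp to 448 bp that started 5496 bp to 5523 bp further on. In 3 of the 4 copies another of 873 bp to 891 bp started 7527 bp to 7549 bp from the first, and the second copy lacked it. The first regions of successive copies were 44.2 kb, 138.8 kb and 44.2 kb apart. Fold enrichment ran from 2.46 to 4.24 in replicate 1 and from 3.30 to 5.82 in replicate 2, and in each copy the shortest region was the lowest in both replicates. The local background was 24.9 to 46.7 and 24.5 to 47.4 times the average. No H3K27ac peak of either line and no H3K27me3 peak of Jurkat lay over any of the 11, so they belong to the 39 regions found in the Loucy H3K27me3 lists alone. Copies of a repeat can share reads, and how the authors placed such reads is not given in the sources used here, so the 4 copies are not independent measurements.

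**Figure D5:**
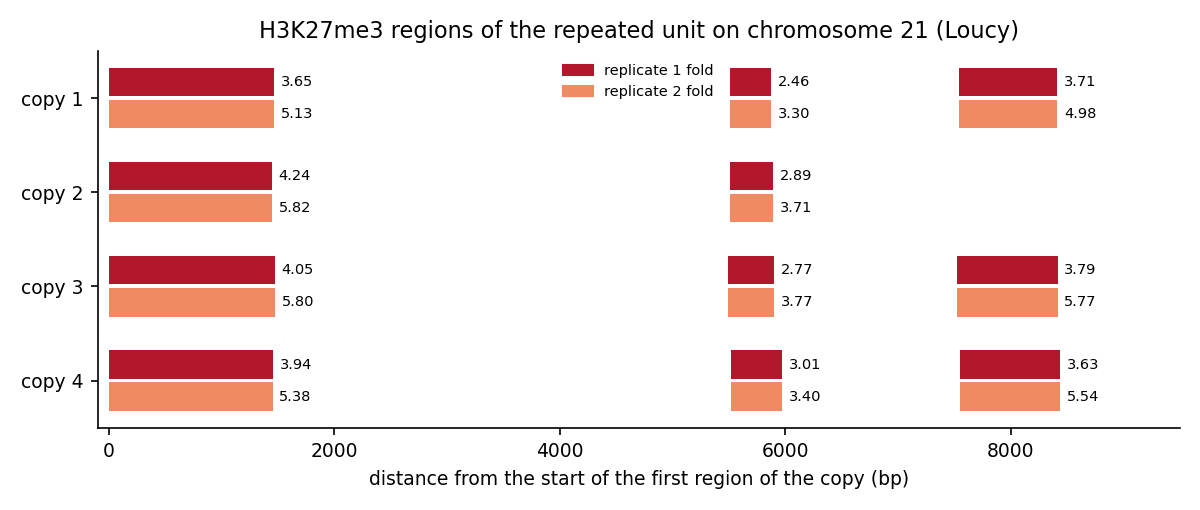
H3K27me3 regions of Loucy in the 4 copies of the repeated pattern on chromosome 21, placed by distance (bp) from the start of the first region of each copy, with bars as long as the merged region and the fold enrichment of replicates 1 and 2 beside them. The layout recurs in all copies except for the last region, which the second copy lacks, and replicate 2 is higher throughout.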

How the data were processed

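Chromatin immunoprecipitation sequencing of H3K27ac and H3K27me3 was read from peak lists, 1 per library. Per the labels' protocols, fixed chromatin was sheared to 200 to 500 bp and given fragmented Drosophila DNA (1 fly cell per 4 sample cells) whose reads the authors did not use, so the values carry no spike-in scaling. Per the submitters' processing notes, Bowtie2 2.2.5 and MACS2 2.0.10 were used, with hg38 for human samples. Per the file headers, MACS 2.0.10.20131216 called broad peaks from read pairs in each library, at a q cutoff of 0.05, with 1 fragment kept per position, against 1 input per line. The deposited values are the pileup signal, the p-value and q-value as −log10, and the fold enrichment as a ratio to local background, all per the file headers. A fragment kept per position caps pileup where fragments stack.

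With Python 3.11.15, numpy 2.4.6, pandas 2.3.3 and scipy 1.17.1, peaks were merged where they overlapped and territories, lengths and coverage were computed on chromosomes 1 to 22, X and Y. Local background was (pileup + 1) / fold − 1, divided by fragments × fragment size / 2.7 Gb. The lowest value in each list came close to that average. Groups follow the labels' line and antibody, and libraries were compared by two-sided exact permutation (2 against 2, smallest p 0.333). Interval functions were tested on simulated data. Regions named are the 10 longest held H3K27ac domains, the 20 held H3K27me3 regions with highest mean fold, the 10 longest H3K27me3 regions, the 5 longest H3K27ac regions touched by H3K27me3, and the 5 longest domains held by neither Jurkat library. Others, such as the 6 domains with H3K27me3 in Jurkat, the 3 regions at ordinary background, the groups within 100 kb and the chromosome 21 pattern, were singled out after their values were seen. Members and lists were chosen with earlier results of these data known. Gene lists and marker genes could not be applied without a human annotation. The input libraries entered only as the controls named in the headers.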

Additional observations from a re-analysis of the deposited data

Results flagged for a closer look

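Relative to the share of the genome under H3K27ac, the share of H3K27me3 peaks with at least 50% of their length under it was higher in both Loucy libraries and lower in both Jurkat libraries. The excess was 10.1 percentage points in replicate 1 and 0.402 in replicate 2 of Loucy, and −1.40 and −1.20 in Jurkat. Every library of each line lay on its own side of 0, and the difference in this excess was not tested. In replicate 2 of Loucy the peak share was 2.78% against a genome share of 2.38%. The binomial interval takes peaks as independent, while these were gathered in few places, so it cannot decide whether the 2 shares differ. Among peaks at high local background alone, the peak shares of the lines were 11.6% and 3.23% against 9.09% and 8.70%.

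The comparisons above leave out peaks on unplaced and unlocalised sequences, and the Loucy H3K27me3 lists had 53 and 56 peaks there, 28.0% of each list. Jurkat had 97 and 79 such H3K27me3 peaks in far longer lists.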

How the results depend on the processing

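Of 62 alternatives over 8 results, 44 kept their direction (counts within 1.5 times, shares within 1 SD), 11 moved and 7 reversed. The rule is loose with 2 libraries, so a kept direction is not a stable size. Loucy shares of H3K27me3 peaks under H3K27ac from 1.47% to 11.8% counted as kept, beside a main value of 7.27% with an SD of 6.35. With −log10 q of at least 5, the difference between marks in Loucy was 26 Mb, the difference between lines in H3K27me3 peaks under H3K27ac was −13.4 points, that in H3K27me3 territory 0.0686 Mb, and that in the broad share of acetylation 1.69 points, with 44 H3K27me3 regions held in both replicates. The broad share also reversed with domains of at least 5 kb (3.58) and with peaks within 12 kb joined (4.03), and ran from −2.44 to 0.592 when replicates were left out in turn. Broad domains numbered 2159 at 5 kb, 35 at 20 kb, 4100 with joining, and 139 to 344 in single replicates; those neither Jurkat library held numbered 696, 9 and 1422, and 261 when Jurkat had to cover 50%. Counting contact of 1 bp, 17.7% of Loucy H3K27me3 peaks lay under acetylation. Leaving out peaks at 10 times the average background or more, a choice made after seeing the data, left 3 H3K27me3 regions held in both replicates, and with those peaks alone the difference between lines in H3K27me3 peaks under H3K27ac was −1.50 points. Apart from the settings that change what is counted, the cause was not tested. The labels do not say what a shared replicate number stands for. With the replicate block, the territory differences (53.9 Mb between marks, −8.88 Mb between lines) and that of 6.83 points had an exact p of 0.5, the smallest possible, and that of −0.924 points an exact p of 1. Of the 10 longest domains, 3 moved in the length covered, as a mean of the replicates, with the stricter q, to between 13.1 kb and 30.6 kb. The lowest was the tenth, whose only replicate 1 peak had a −log10 q of 4.19 and dropped out. The fifth counted as moved from 31.4 kb to 30.6 kb, while the seventh, from 26.4 kb to 22.8 kb, did not, as its replicates differed more. What part the lower depth of the Loucy H3K27me3 libraries plays was not tested.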

Other observations

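The Loucy H3K27me3 peaks outside the main chromosomes lay on 14 sequences in replicate 1 and 12 in replicate 2, and the 12 were among the 14. They covered 55.3 kb and 48.3 kb, with a fold enrichment of 1.75 to 7.31 and of 1.90 to 10.9. Up to 10 and 13 peaks fell on a single sequence. Jurkat had no H3K27me3 peak on 7 of the 14 and on 6 of the 12, and Loucy H3K27ac peaks lay on 8 and 5 of them.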
